A study of Mus musculus with 4 samples.

Results

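The 10 genes described here encode the enzymes that begin the breakdown of the branched-chain amino acids leucine, isoleucine and valine, and the transporter that brings them into the cell: Bcat1, Bcat2, Bckdha, Bckdhb, Bckdk, Dbt, Dld, Slc7a5, Slc3a2 and Ivd. They were chosen by name out of 21887 protein-coding genes, with earlier results of these data known, and every single-nucleotide variant (SNV) and indel listed inside their gene bodies was collected. The measurement is whole-exome sequencing of genomic DNA from c-Kit+ leukemia cells, that is, cells carrying the c-Kit receptor, from the bone marrow of moribund mice. All 4 samples form 1 group on a C57BL/6 background with the genotype E2-KO, spelled out in the title as Nras-G12D (an activating mutation of the small GTPase Nras) with Ezh2 KO, the loss of the Polycomb methyltransferase Ezh2; every sample is labelled with both. The labels name neither the Cre or promoter behind these alleles nor the age of the mice, and they do not number the animals, so replicates 1 to 4 follow the order of listing. No matched normal tissue enters the comparison, so no variant is called somatic, and the spread between samples may be technical in part. Cell-type markers cannot be checked in DNA variant lists.

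Branched-chain aminotransferases (cytosolic Bcat1 and mitochondrial Bcat2) reversibly pass the amino group of leucine, isoleucine or valine to alpha-ketoglutarate, giving glutamate and a branched-chain keto acid. The mitochondrial dehydrogenase complex, built from the E1 subunits Bckdha and Bckdhb, the E2 subunit Dbt and the E3 subunit Dld, then oxidises the keto acid irreversibly, and the kinase Bckdk switches the complex off by phosphorylating E1. In myeloid leukaemia, high BCAT1 has been linked to lower alpha-ketoglutarate, and loss of EZH2 to derepression of BCAT1; the lists used here hold DNA variants and say nothing about expression. The comparison below asks which of these genes carry sequence changes in the leukaemia cells.

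A variant was called confident when both callers, SpeedSeq (freeBayes) and VarScan2, listed the same change with 10 reads or more, of which 3 or more and a share of 0.10 or more carried it, and SpeedSeq's quality score was 20 or more. Over all genes the samples held 21550 to 34284 confident SNVs and 2861 to 3753 confident indels, at a median SNV depth of 46 to 55 reads.

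Of the 10 genes, 2 held a confident variant in any sample, Bcat1 and Bckdhb, and 8 held none. Among all protein-coding genes the share with a confident variant in any sample was 24.0%, so the members' 20% is near the background. No member had a confident variant in every sample, against 5.11% of all genes. With VarScan2 alone 4 members had a call that passed its minimums in any sample (34.0% of all genes) and 2 had one in every sample (7.37%). Replicates 1, 2 and 4 each carried 3 confident variants in the members and replicate 3 carried none, a mean of 2.25 ± 1.5 (SD, n = 4). The carriers were the same 2 genes in replicates 1, 2 and 4, whereas the share of all genes with a confident variant was 14.8%, 14.6%, 14.6% and 10.8% in replicates 1 to 4. The variants are 4 distinct events at 3 positions: 2 T-to-G changes in Bckdhb and, at 1 position of Bcat1, the loss of 1 or 2 bases from a run of G. The members' median gene length of 23.7 kb was longer than the 17.2 kb of all protein-coding genes, and gene bodies include introns that the capture did not target.

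**Figure D1:**
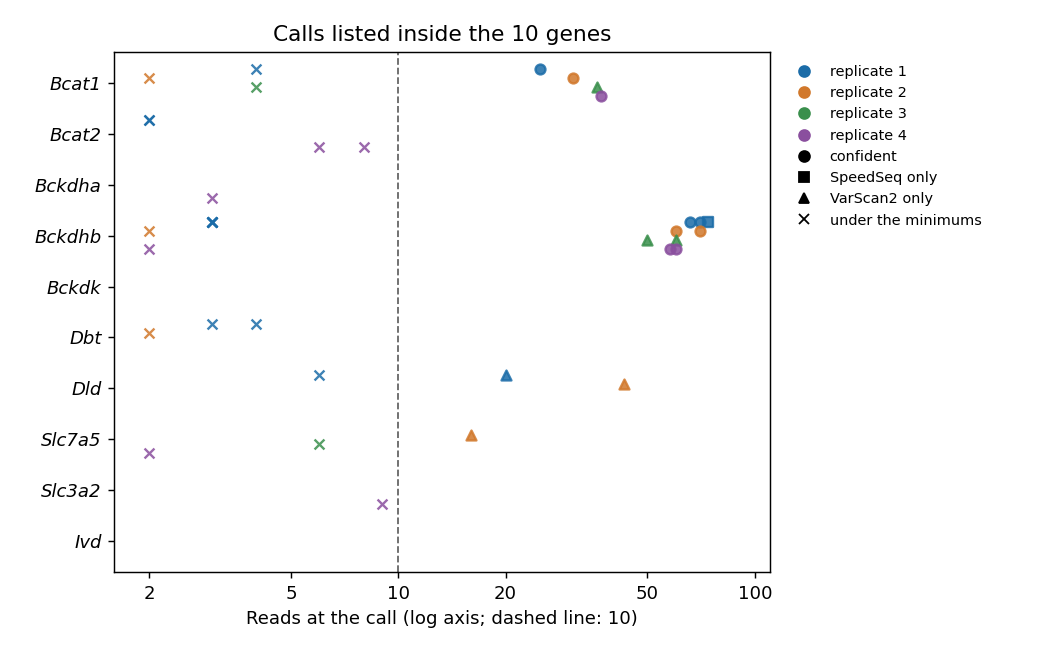
Every call listed inside the 10 genes, by the number of reads at the call (log axis, SpeedSeq depth or, where SpeedSeq lists no call, VarScan2 coverage); colours are replicates and marker shapes say which caller's minimums the call passed. Confident calls lie only in Bcat1 and Bckdhb, the calls under the minimums lie at 2 to 9 reads, and Bckdk and Ivd have no call.

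Bcat1, the cytosolic aminotransferase, lies on chromosome 6 from 144993835 to 145076157 (mm10, 82323 bases). Its confident event is a shortened G run at chr6:145034478-145034500, inside the gene body; the annotation used here gives no exons, so exon or intron was not determined. The alleles as SpeedSeq lists them are shown because the run itself is the site; the capitals mark it.
Reference allele: tGGGGGGGGGGGGGtgtgagagc
Replicates 2 and 4, 1 base shorter: tGGGGGGGGGGGGtgtgagagc
Replicate 1, 2 bases shorter: tGGGGGGGGGGGtgtgagagc
The run has 13 G in the reference, 12 in the allele of replicates 2 and 4 and 11 in that of replicate 1. In replicate 3 only VarScan2 listed the event, as the loss of 1 base. Both callers thus listed a shorter run in 3 samples, but not the same length in each.

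The zygosity of the Bcat1 deletion depends on what is counted. As a share of all reads at the site, SpeedSeq counted 10 variant reads of 25 in replicate 1 (40%, exact 95% interval 21.1 to 61.3), 19 of 31 in replicate 2 (61.3%, 42.2 to 78.2) and 14 of 37 in replicate 4 (37.8%, 22.5 to 55.2). All of these are under 0.65, the bound above which a fraction is called upper-range (near what a homozygous site gives). Yet SpeedSeq recorded only 1, 3 and 0 reads of the reference run and gave the genotype as homozygous. A further 14, 9 and 23 reads at the site were counted for neither allele, and what they carried is not listed. As a share of reference plus variant reads the values were 90.9% (58.7 to 99.8), 86.4% (65.1 to 97.1) and 100% (76.8 to 100). VarScan2 gave 68.8%, 77.8%, 57.1% and 65.6% of reference plus variant reads in replicates 1 to 4. No range can therefore be assigned to this event.

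Long single-base runs are common among indels of these lists: 27.2% to 30.5% of the confident indels of a sample lay in runs of 10 or more bases. Reads that fitted neither allele made up 56.0%, 29.0% and 62.2% of the depth at the Bcat1 run in replicates 1, 2 and 4, against sample medians of 22.9%, 22.4% and 23.3% for confident indels in such runs. All 43 variant reads that SpeedSeq counted over the 3 samples lay on the forward strand, as did all 69 of VarScan2 over 4 samples. Between 21.0% and 32.1% of the confident indels of a sample also had variant reads on 1 strand only in VarScan2. The part that the run and the strand have in the call was not tested.

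Bckdhb, the E1 beta subunit of the dehydrogenase, is the longest member at 199130 bases (chromosome 9, 83925111 to 84124240). Its confident SNVs are T83966522G and T83966530G, written as the reference base, the mm10 position on chromosome 9 and the variant base; they lie 8 bases apart inside the gene body. In replicates 1, 2 and 4, T83966522G was read in 27 of 66 reads (40.9%, exact 95% interval 29.0 to 53.7), 21 of 60 (35.0%, 23.1 to 48.4) and 24 of 58 (41.4%, 28.6 to 55.1), a mean of 39.1% ± 3.56 (SD, n = 3). In the same samples T83966530G was read in 30 of 70 reads (42.9%, 31.1 to 55.3), 22 of 70 (31.4%, 20.9 to 43.6) and 28 of 60 (46.7%, 33.7 to 60.0), a mean of 40.3% ± 7.93 (SD, n = 3). Both SNVs were thus lower-range, the range of a heterozygous site, wherever they were confident.

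Replicate 3 was not free of these changes. SpeedSeq listed neither, but VarScan2 listed both, in 12 of 48 reference plus variant reads (25.0%, 13.6 to 39.6) and in 16 of 59 (27.1%, 16.4 to 40.3). With VarScan2 the means over 4 samples were 35.8% ± 7.66 and 34.3% ± 6.24 (SD), with replicate 3 the lowest at both positions and its intervals overlapping those of the other samples. Fisher's exact test between pairs of libraries found no difference in the reads of the confident events. The smallest raw p was 0.103 and the smallest adjusted p 0.622 over 7 two-sided Fisher's exact tests on SpeedSeq reads, and 0.0898 and 0.569 over 15 on VarScan2 reads. The Bckdhb SNVs lie 8 bases apart and are linked, so their tests are not independent. What size of difference these tests could detect was not computed, so the fractions are not shown to be equal.

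**Figure D2:**
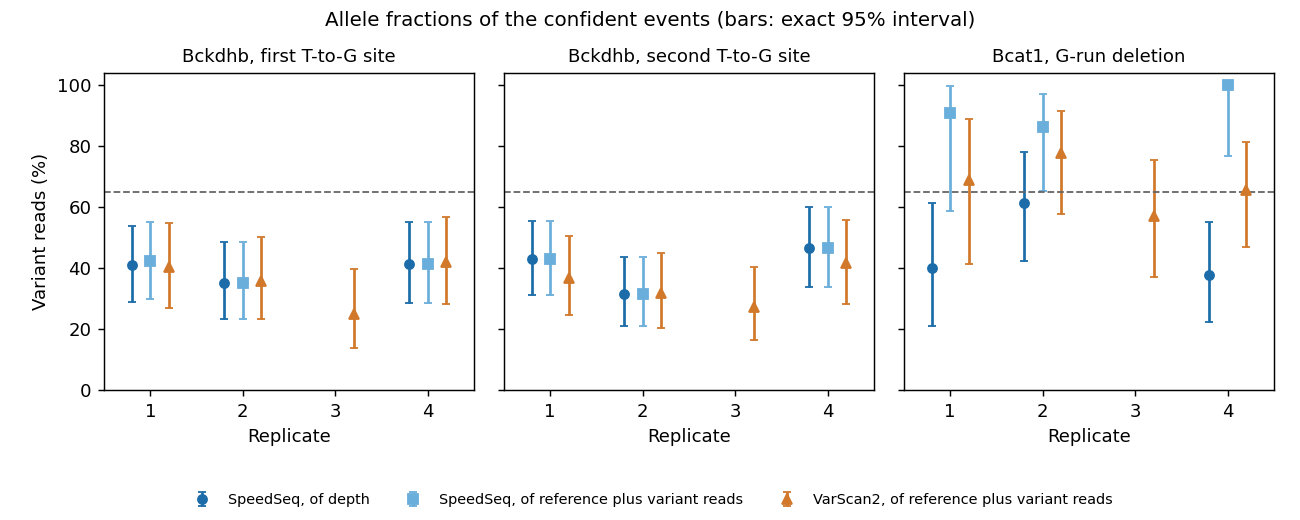
Percentage of variant reads at the 2 Bckdhb SNVs and the Bcat1 run in each replicate, with exact 95% binomial intervals (counting error only); the dashed line is the upper-range bound of 65%. The Bckdhb fractions lie under the line in both callers, whereas those of Bcat1 lie on either side of it depending on the denominator.

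The strands of the Bckdhb reads set these SNVs apart from nearly all others. At T83966522G, VarScan2 counted 31, 34, 36 and 29 reference reads in replicates 1 to 4, all on the forward strand. The variant reads there numbered 21, 19, 12 and 21, all on the reverse strand except 1 in replicate 2. At T83966530G all variant reads of the 4 samples were on the reverse strand, and all reference reads were on the forward strand except 1 in replicate 1.

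The difference between the forward share of reference reads and that of variant reads was taken over all confident SNVs with at least 5 reads of each allele. It was 0.9 or more at 8 of 26592 SNVs in replicate 1 (0.0301%), 8 of 25179 in replicate 2 (0.0318%) and 8 of 11051 in replicate 4 (0.0724%), and the Bckdhb pair is 2 of the 8 in each. The median difference over all such SNVs was 0.0611 to 0.0676 in these samples. The bound of 0.9 was set after the Bckdhb reads had been seen. T-to-G changes and their complement made up 8.23% to 8.38% of the confident SNVs of these 3 samples. Of the 8 with such a strand difference they were 6, 4 and 6. These counts include the Bckdhb pair in each sample, so part of them was fixed when the bound was set.

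**Figure D3:**
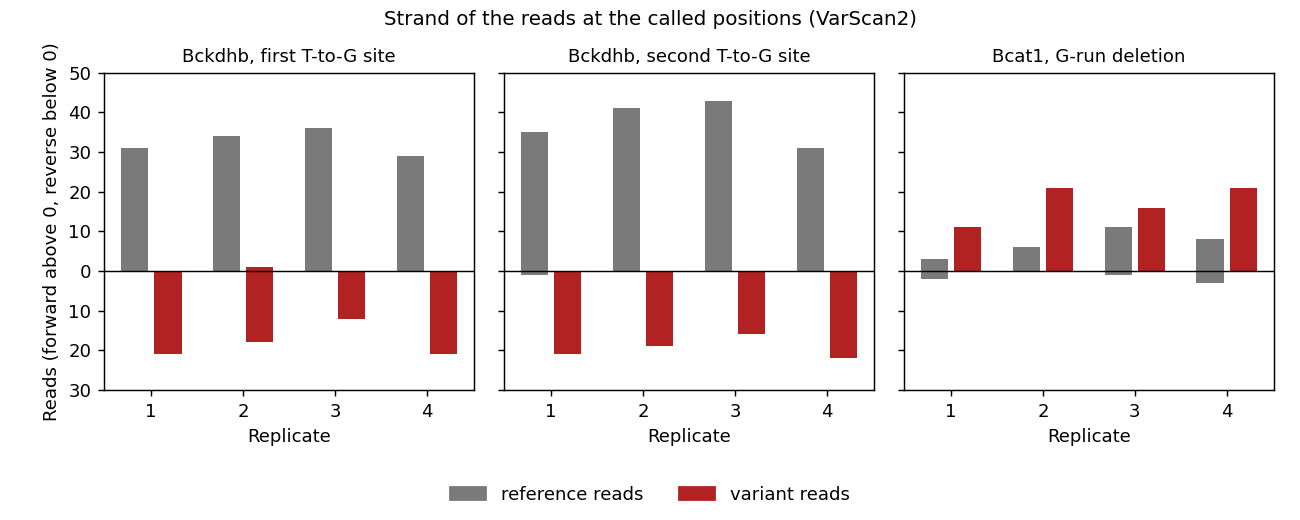
Reads of each allele at the 2 Bckdhb SNVs and the Bcat1 run by strand in each replicate (VarScan2; forward reads above 0, reverse reads below 0). At both Bckdhb positions the reference reads are forward and the variant reads reverse in every replicate, with 1 read out of place in replicate 2 at the first and 1 in replicate 1 at the second; at the Bcat1 run the variant reads of every replicate are forward.

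The bases behind the Bckdhb calls were also of low quality. The mean base quality of the variant reads at T83966522G was 23.7, 26.1 and 23.9 (Phred-scaled) in replicates 1, 2 and 4, against 30.9, 34.2 and 32.2 for the reference reads. At T83966530G it was 19.7, 24.5 and 20.7, against 33.7, 34.7 and 35.8. The median over all confident SNVs was 35.6 to 35.8, and no more than 0.324% of them had a lower value than any of these 6. The mean mapping quality of the variant reads was 47.0 to 55.2, beside a median of 60 over all confident SNVs. Such values were not rare: 16.8% to 24.6% of the confident SNVs of the same sample had a lower one. A T-to-G call 9 bases before the first was listed by SpeedSeq in replicate 1 alone (27 of 74 reads). Its variant reads were all on the reverse strand, but its reference reads lay on both strands (34 forward and 13 reverse). The part of strand and base quality in these calls was not tested.

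The other subunits of the dehydrogenase held no confident variant. Bckdha, the E1 alpha subunit (chromosome 7, 25629852 to 25658782), had 1 listed call, at a depth of 3 in replicate 4. Dbt, the E2 core (chromosome 3, 116513070 to 116549981), had 3 calls, at depths of 3 and 4 in replicate 1 and 2 in replicate 2. Dld, the E3 subunit, which the pyruvate and alpha-ketoglutarate dehydrogenases share (chromosome 12, 31331562 to 31351471), had 1 shallow call and a 1-base deletion of A at position 31332479 that only VarScan2 listed. That deletion had 4 variant reads at a coverage of 20 in replicate 1 and 9 at a coverage of 43 in replicate 2, 20% and 20.9% as VarScan2 lists them, which is at the 20% below which its tables list nothing. Bckdk, the kinase (chromosome 7, 127904073 to 127909664), had no call of any quality in any sample.

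The remaining enzymes and the transporter were likewise without a confident variant. Bcat2, the mitochondrial aminotransferase (chromosome 7, 45568967 to 45589710), had 4 calls at depths of 2 to 8; 2 of them, in replicate 4, were A-to-C changes 9 bases apart with 4 and 5 variant reads, all forward. Ivd, isovaleryl-CoA dehydrogenase of the leucine branch (chromosome 2, 118861959 to 118882909), had no call in any sample. Slc7a5, the light chain LAT1 that carries large neutral amino acids (chromosome 8, 121881146 to 121907686), had 2 calls at depths of 2 and 6 and an A-to-G change listed by VarScan2 alone in replicate 2, with 5 variant reads at a coverage of 16, all reverse. Slc3a2, the heavy chain CD98 that brings Slc7a5 to the cell surface (chromosome 19, 8706882 to 8723369), had 1 call at a depth of 9 with 2 variant reads in replicate 4.

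In all, the files list 38 calls inside the members over the 4 samples: 9 confident, 7 that pass the minimums of a single caller and 22 under the minimums. The 22 had depths of 2 to 9 (median 3), and 19 of them rest on 2 variant reads. Replicate 1 had 11 of them, replicate 2 had 3, replicate 3 had 2 and replicate 4 had 6. The 11 promoter windows of 300 bases that RefSeq (GRCm38.p6) gives for 8 members held no listed call. The files give no depth where no call was made, so a member without a call may match the reference or may not have been read deeply enough.

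Around the genes, the density of confident SNVs was low for most members, as it was for most protein-coding genes. In a 1 Mb window centred on each gene, Bckdha, Dld and Slc7a5 had no confident SNV in any sample, and in each sample 5 of the 10 windows had none. The median over the members was 0.5 SNVs per window in each sample, beside 0 over all protein-coding genes, of whose windows 56.7% to 62.0% had none. In replicates 1, 2 and 4 the Bckdhb window held only the 2 T-to-G changes of the gene itself. Without them more windows would be empty there and the median would be lower. The nearest confident SNV to Dld lay 6838 kb away or more in every sample. Windows on Bcat1, Bcat2, Dbt, Slc3a2 and Ivd held 0 to 2 SNVs. Over all protein-coding genes only 21.9% to 28.8% of the windows of a sample held more than 2. The nearest SNV to Bcat1 lay at the same position in all 4 samples, 170.6 kb above the gene, and was upper-range in each (allele fractions of 1.0, 1.0, 1.0 and 0.988). The gene body of Bcat1 itself carried no confident SNV.

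**Figure D4:**
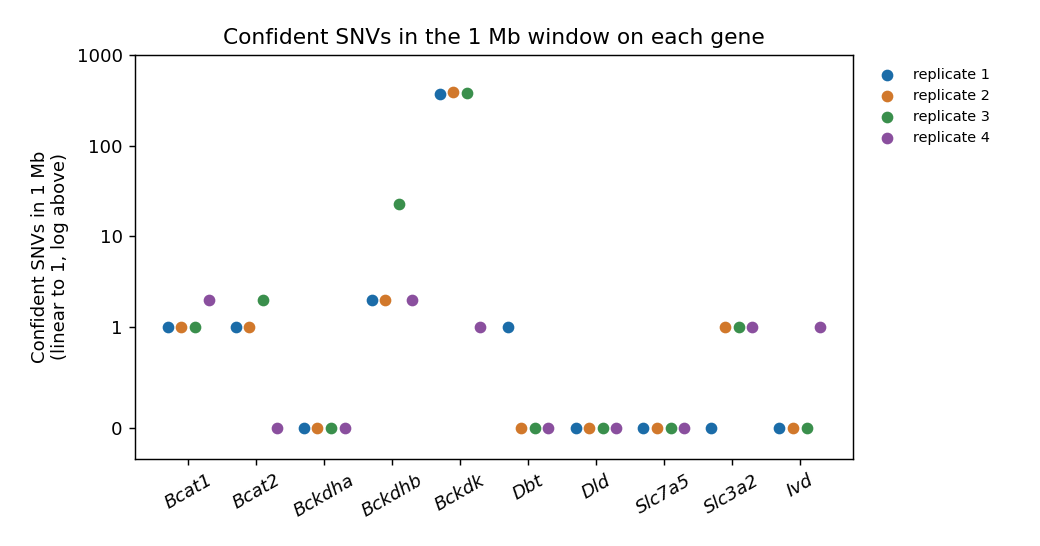
Confident SNVs in the 1 Mb window centred on each gene, 1 point per replicate (axis linear from 0 to 1 and logarithmic above). Bckdk stands at 371 to 387 in replicates 1 to 3 and at 1 in replicate 4, Bckdhb at 23 in replicate 3 and 2 in the others, and the remaining genes between 0 and 2.

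Bckdk is the exception, and in 3 samples only. Its window held 371 SNVs in replicate 1, 387 in replicate 2 and 376 in replicate 3, but 1 in replicate 4. The first 3 counts exceed those on 98.7%, 98.7% and 99.2% of protein-coding genes, and that of replicate 4 exceeds 62.0%. All of these SNVs lay on 1 side of the gene, at higher coordinates, and none on the other. The 23 protein-coding genes of the window below Bckdk held no confident SNV in any sample. Bckdk thus lies outside a variant-dense segment that begins above it.

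That segment includes genes of myeloid cells. The integrin genes Itgam, which encodes CD11b, Itgax, which encodes CD11c, and Itgad held 54, 58 and 83 SNVs in replicate 1, with 55, 58 and 93 in replicate 2, 55, 62 and 82 in replicate 3 and none in replicate 4. Of the 411 sites in the window in replicates 1 to 3, 341 (83.0%) were found in all 3. Their median allele fraction, at depths of at least 20, was 0.460, 0.460 and 0.388 in replicates 1 to 3. Over all confident lower-range SNVs of a sample with a depth of at least 20, the median was also lower in replicate 3, at 0.379. It was 0.448, 0.457 and 0.448 in replicates 1, 2 and 4. Within 2 Mb of Bckdk, replicate 4 did hold 103 SNVs, against 727, 766 and 747 in replicates 1 to 3. Of those with a depth of at least 20, 87 of 87 in replicate 4 were upper-range, against 84 of 625, 72 of 637 and 79 of 661 in replicates 1 to 3, so the number of upper-range SNVs was similar in every sample. At the 87 sites of replicate 4, replicates 1 to 3 had confident SNVs of that depth at 73, 74 and 82, of which 51, 52 and 57 were upper-range there too. In number, the samples therefore differ mainly in the lower-range SNVs beside Bckdk, although not every upper-range site of replicate 4 was upper-range in the others. Bckdk itself has no confident SNV in any sample.

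**Figure D5:**
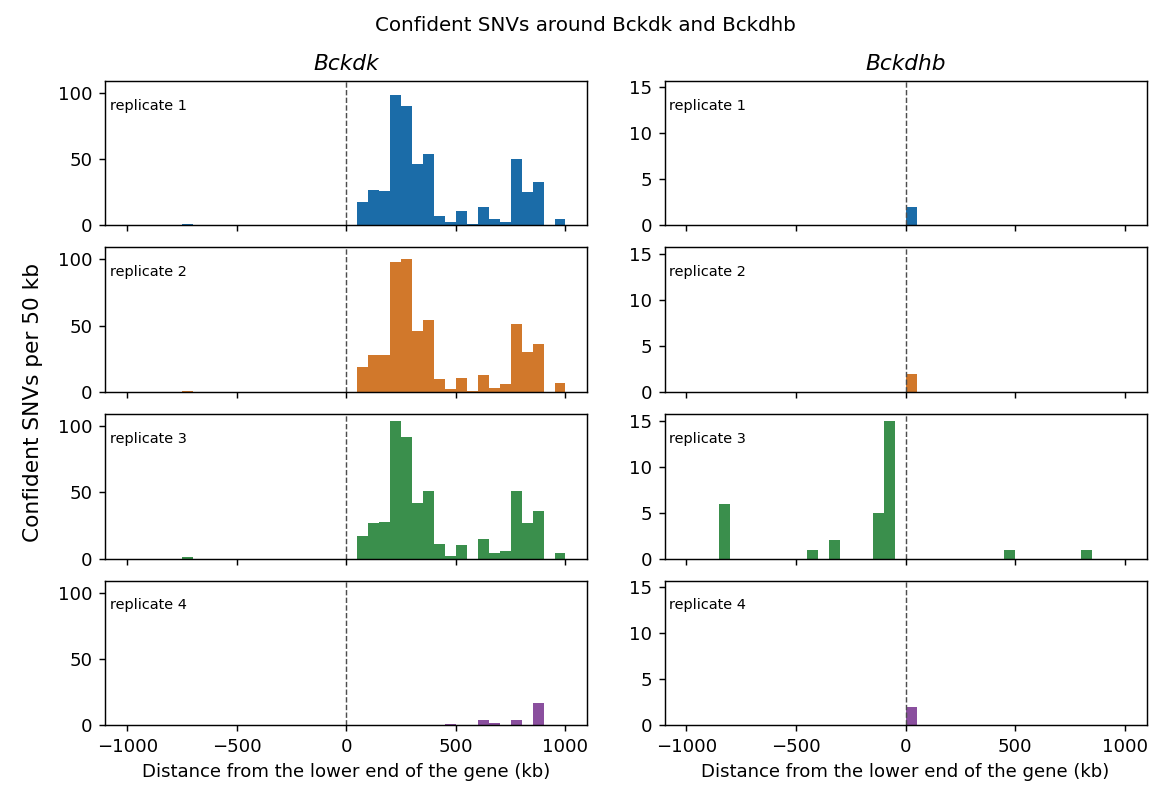
Confident SNVs per 50 kb within 1 Mb of the lower end (dashed line) of Bckdk (left) and Bckdhb (right), 1 row per replicate. SNVs begin above Bckdk in replicates 1 to 3, with few in replicate 4, and flank Bckdhb in replicate 3 only; the bar at the dashed line of Bckdhb in the other replicates is its 2 T-to-G changes.

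The neighbourhood of Bckdhb differed in replicate 3. Outside the gene its window held 23 confident SNVs in replicate 3 and none in replicates 1, 2 and 4, and within 2 Mb of the gene the counts were 79 and 0, 0 and 0. The 23 SNVs included 15 in Ttk, a mitotic checkpoint kinase, 5 in Elovl4 and 2 in Sh3bgrl2, and 22 of the 23 lay below the gene. All 20 of them with a depth of at least 20 were lower-range (median fraction 0.364). Replicate 3 is also the sample in which SpeedSeq listed no call within the 199130 bases of Bckdhb. The nearest SNVs lay 56.3 kb below and 262 kb above it. In replicates 1, 2 and 4 the nearest SNV outside the gene was 2247 kb, 5557 kb and 2247 kb away.

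The rest of the pathway was read from a list of 36 genes of later breakdown steps, regulators, other transporters and leucine sensors. Of these, 15 (41.7%) held a confident variant in any sample, beside the 24.0% of all genes, and 2 did in every sample. Their median length of 33.0 kb is longer than that of the members. Ppm1k, the phosphatase that opposes Bckdk by dephosphorylating E1, held 8, 11, 12 and 10 confident variants in replicates 1 to 4, 7 of them in every sample. Its median allele fraction was 1.0 in replicates 1, 2 and 4 and 0.373 in replicate 3, so this regulator, unlike Bckdk, was upper-range in 3 samples and lower-range in 1. Oxct1, which activates ketone bodies, carried a 1-base deletion of A at position 4053869 of chromosome 15 in every sample, in all SpeedSeq reads of each (50, 59, 51 and 52). VarScan2 gave it 90.9%, 96.7%, 92.3% and 96.3% of reference plus variant reads.

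Other genes carried variants in some samples only. Mccc1, a subunit of the leucine-branch carboxylase, had none in replicate 1 and 27, 28 and 23 in replicates 2 to 4, with median fractions of 0.536, 0.364 and 1.0. Echs1, enoyl-CoA hydratase, had 24, 24, 27 and none, and Pccb, a propionyl-CoA carboxylase subunit, had 37 in replicate 3 alone. Auh had 13 in replicate 3 alone, Acaa1a 14 in replicate 1 alone, and Hadha 6 in replicate 2 and 3 in replicate 4. Lars, the leucyl-tRNA synthetase, had 29, 22, none and 25. The other 6 genes, Mcee, Hibadh, Hadh, Acat1, Slc43a1 and Sesn2, had 1 to 4 distinct events each. The T-to-C change in Hadh had its variant reads on the reverse strand only, in replicates 1 and 3, beside reference reads that were forward except 1 and 2, the same arrangement as in Bckdhb.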

How the data were processed

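The members, gene lists and settings were chosen with earlier results of these data known. Per the labels' protocols, exome libraries came from an Agilent SureSelect mouse kit and were sequenced as paired 100-base reads on a BGISEQ500. The authors deposited 3 files per sample: SpeedSeq calls made by freeBayes 0.9.21 against UCSC mm10, with a Phred-scaled quality score, per the file headers, and VarScan2 tables of SNVs and indels. Both mm10 and GRCm38 appear in the submitters' processing notes. For the aligner, duplicates and the VarScan2 version, nothing is given in the sources used here. VarScan2 lists no coverage under 8 and no frequency under 20%.

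From these files, alleles of equal length were split into single bases and indels trimmed to position and bases before matching. Gene bodies came from a RefSeq table (GRCm38.p6) with no exons; Mut was matched through its synonym. Fractions are variant reads over depth (SpeedSeq) or over reference plus variant reads (VarScan2), with exact (Clopper-Pearson) 95% intervals for counting error only. Reads were compared between libraries by Fisher's exact test with Benjamini-Hochberg adjustment (scipy 1.17.1, Python 3.11.15). The named genes are all members and each other pathway gene with a confident variant. Parsing was tested on simulated data. Alternatives covered caller, depth, fraction, quality, gene margin, window, upper-range bound and leaving out each replicate.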

Additional observations from a re-analysis of the deposited data

Results flagged for a closer look

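Of 16 per-sample quantities examined, 8 had 1 sample far from the other 3 (a gap to the nearest sample of most of the whole range). Chance gives about 1 in 20 for normally distributed values, but small whole numbers with 3 ties are always picked out, so that rate does not hold here, and the quantities overlap. Replicate 3 had 0 confident variants inside the members against 3 in each other sample. Replicate 4 had 7 confident SNVs over the 10 windows of 1 Mb, against 376, 392 and 403, and this comes from the window on Bckdk, with 1 SNV against 371, 387 and 376. Replicate 3 had 23 SNVs in the window on Bckdhb against 2 in each other sample. The other 4 differ by a single SNV: replicate 4 had 2 in the window on Bcat1 against 1, replicate 1 had 1 in that on Dbt against 0 and 0 in that on Slc3a2 against 1, and replicate 4 had 1 in that on Ivd against 0.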

How the results depend on the processing

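Of 69 recomputed values, 59 stayed within the spread between samples or, for counts, within 1.5 times, and 10 moved. That spread is wide where 1 replicate stood apart, so a value within it can still differ much. The mean of confident variants inside the members was 2.25, and 3.75 with VarScan2 alone. For SNVs summed over the 10 windows, leaving out replicate 4 gave a mean of 390. Both count as within the spread. With VarScan2 alone 4 members had a variant in any sample and 2 in every sample. Leaving out 1 replicate gave 0 to 2 members with a confident variant in every sample, the 2 being without replicate 3. Without variants that had 90% or more of their variant reads on 1 strand, a setting chosen after seeing the data, the mean per sample was 0 and 0 members had a confident variant, beside 19.8% of all protein-coding genes; the strand counts of the 2 member genes, already known, fix that 0. The mean number of SNVs summed over the 10 windows was 294.5, with 17.0 for windows of 200 kb and 706 for windows of 5 Mb, which follows from their size. The mean number of upper-range member variants was 0, with 0.25 at a bound of 0.55, 0.75 with VarScan2 fractions and 0.75 with SpeedSeq fractions of reference plus variant reads (the last also chosen after seeing the data). No paired analysis was possible because there is 1 group. Fractions under 20% and positions without a call are outside what these lists can show.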
